A study of Mus musculus with 18 samples.

Results

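The genes described here are those of fatty acid oxidation in the liver and of the wider program that the receptor PPAR-alpha controls. A list of 35 genes was taken. Members were found by their symbol in the platform annotation of the arrays, and each was represented by its brightest probe set. Of the 35, 33 had a probe set under their symbol, among 18193 genes with a probe set of 1 gene, and all 33 lay above the filter for dim probe sets. The acyl-CoA synthetase gene Acsl1 and the mitochondrial carrier gene Ucp2 were not analysed here.

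Liver RNA of C57BL/6 mice was hybridised to 18 Affymetrix Mouse Genome 430 arrays, 3 for each of 6 groups. WT mice (AIM+/+) and AIM-KO mice (AIM-/-) were each sampled on normal chow, with 0 weeks of high-fat diet (HFD), after 12 weeks of HFD and after 20 weeks of HFD. AIM is the apoptosis inhibitor of macrophage, a secreted protein made by macrophages and encoded by Cd5l; the labels name no cell type in which it was removed and no construct, and every AIM-KO group carries the same allele. The labels call the samples biological replicates without saying that each came from a separate animal, so the p-values measure the spread between these samples, and the ages are missing from them, so that the weeks of feeding cannot be told apart from age. The question is what the diet does to liver RNA, and whether AIM-KO mice differ in it.

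Fatty acids reach the mitochondrial matrix as carnitine esters and are then shortened by a repeated cycle of dehydrogenation, hydration, a second dehydrogenation and thiolysis. Very long and unusual chains are first shortened in peroxisomes, thioesterases release free fatty acids from coenzyme A, and part of the acetyl-CoA leaves the liver as ketone bodies. PPAR-alpha, a nuclear receptor that binds fatty acids and works as a dimer with RXR, raises transcription of many of these genes in fasting and under lipid load.

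Values are intensities of the deposited table on a linear scale, and changes are differences of group means on the log2(intensity + 3.3) scale ± SE with n = 3 arrays in each group, from limma, with p-values adjusted over 14691 genes. Below, a called gene is one whose adjusted p was under 0.05. Intensities of different probe sets were not compared with each other. Cd5l read 702.6 to 1926.8 on the 9 WT arrays and 4 to 23.5 on the 9 AIM-KO arrays. The median intensity of an array was 15 to 21.1, and the number of arrays limits the precision. Xist, an RNA of female cells, was at 2921.6 to 3049.7 on 4 arrays, namely WT 20 weeks replicate 2 and the whole AIM-KO group at 20 weeks. On the remaining 14 it was at 7.8 to 26.2. The Y chromosome genes Eif2s3y, Kdm5d and Uty read 1.4 to 9.9 on those 4 arrays and 71.8 to 675.1 on the remaining 14. By these genes the 4 arrays hold female RNA and the 14 male RNA, though no sex is stated in the labels. All results that rest on the AIM-KO group at 20 weeks carry this difference. For the members called there, values with a term for it are given below, and for markers and genes of other lists none are given. The ratio of the actin control probe sets at the 3' and 5' ends of the message, which rises as RNA is degraded, was 2.25 to 3.06 on 15 arrays, 3.64 and 4.22 on WT 20 weeks replicates 1 and 3, and 3.79 on WT 12 weeks replicate 2. Hepatocyte markers were bright on every array, with a sum over 10 marker genes (of 12 listed) between 49280 and 75980.

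High-fat feeding was accompanied by a partial rise of the program. By the brightest probe sets, Crat, Pex11a, Acot2, Fgf21 and Vnn1 had changes above 1 on the log2 scale in each diet comparison. So did Pdk4, which was not called in WT at 12 weeks. Every gene of the mitochondrial oxidation cycle had changes under 0.75 by its brightest probe set, though a dimmer probe set of Hadh rose further. In WT livers 9 of 33 members were called at 12 weeks (27.3%, against 5.13% of all genes tested) and 11 at 20 weeks (33.3%, against 14.5%). In AIM-KO livers 12 were called at 12 weeks (36.4%, against 18%) and 15 at 20 weeks (45.5%, against 6.85%). All of these were higher on HFD except Fabp1 in AIM-KO at 12 weeks. The median change of the 33 members was 0.34 and 0.26 in WT and 0.28 and 0.50 in AIM-KO, at 12 and 20 weeks, where the median of all genes lay between -0.01 and 0.04. The comparisons within a genotype share their chow arrays.

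The count for AIM-KO at 20 weeks moved most with the choice of arrays. It was 9 without AIM-KO chow replicate 1 or without AIM-KO 20 weeks replicate 2, and 19 without AIM-KO chow replicate 3. Once a term marked the Xist-high arrays, a term that rests on a single WT array, it was 1, the gene Bdh1 (0.81, adjusted p = 0.025), and the number called among all genes was 195 in place of 1007. The changes with the term were about as large as those without it for Crat (1.19 against 1.18), Pex11a (1.33 against 1.23), Acot2 (1.81 against 1.75) and Fgf21 (1.67 against 1.91), with adjusted p = 0.11, 0.23, 0.068 and 0.068. They were smaller for Vnn1 (1.80 against 2.30, adjusted p = 0.18). With the term Pdk4, Cpt2, Slc25a20 and Acadl had 1.94, 0.31, 0.29 and 0.43, also smaller than the changes without it given below. The changes were much smaller for Etfdh (0.25 against 0.74), Ehhadh (0.05 against 0.59) and Acot1, Acot3 and Acot4, which are described below.

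The same 6 genes were called, and higher, in each of the 4 diet comparisons: Crat, Pex11a, Acot2, Bdh1, Fgf21 and Vnn1. That is 18.2% of the members, against 1.56% of all genes tested. Called in at least 1 comparison were 21 members (63.6%, against 25.4% of all genes) and in none 12 (36.4%, against 74.6%), and no member was called higher in one and lower in another. For 9 of 33 members each of the 12 HFD arrays lay above each of the 6 chow arrays, where 2.72% of all genes tested did so. These were those 6 genes with Cpt1a, Acadl and Acads, and their number was 12 after quantile normalization. No member had its HFD arrays all below its chow arrays, as 1.73% of all genes did.

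**Figure D1:**
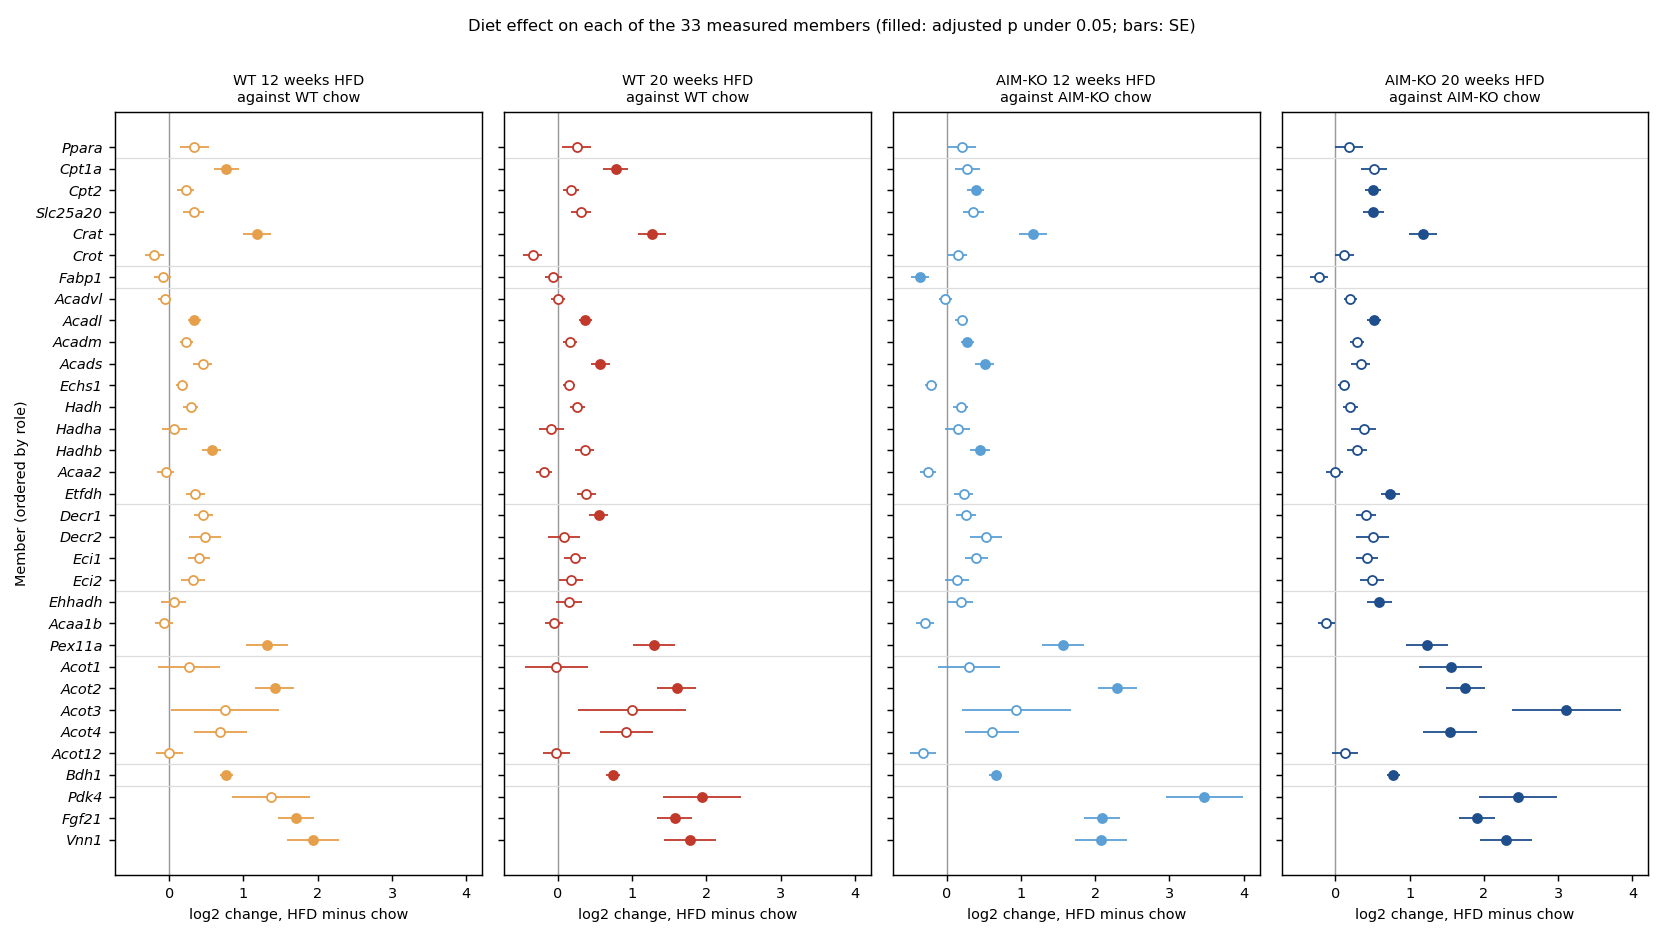
Log2 change (HFD minus chow, with SE) of the 33 measured members, ordered by role from Ppara at the top to Vnn1 at the bottom, in WT and AIM-KO at 12 and 20 weeks, 3 arrays a group. Filled points are called; 9, 11, 12 and 15 members are filled from left to right, and all filled points but that of Fabp1 in AIM-KO at 12 weeks lie to the right of 0.

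Ppara itself, which encodes the receptor, was not called in any comparison. On chow it read 861.1, 1674.7 and 1708.7 in WT and 1552.4, 1616.8 and 1052.4 in AIM-KO. On HFD it read 1696.6, 1784.2 and 1650 at 12 weeks and 1619.4, 1683.2 and 1535.7 at 20 weeks in WT, and 1604.9, 1531.1 and 1674.3 and then 1512.9, 1562.7 and 1619.3 in AIM-KO. WT chow replicate 1 and AIM-KO chow replicate 3 were low, and the other 16 arrays lay between 1512.9 and 1784.2 in all groups. The change from chow was 0.34 ± 0.19 and 0.25 ± 0.19 in WT (adjusted p = 0.36 and 0.44) and 0.21 ± 0.19 and 0.18 ± 0.19 in AIM-KO (adjusted p = 0.52 and 0.68), with a 95% interval that reached 0.74 at most. Without the 2 low chow arrays these values were 0.02, -0.07, 0.02 and -0.02. These arrays are the ones low in Ppara itself, so the smaller changes follow from leaving them out. The other probe sets of Ppara were not called either.

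The same 2 chow arrays had the lowest Dbp and the highest Arntl, genes of the circadian clock that were chosen after their values were seen. In Arntl the margin was narrow for AIM-KO chow replicate 3. Dbp, a clock output gene, read 403 on WT chow replicate 1 and 1099.2 on AIM-KO chow replicate 3, against 2128.1 to 3090.1 on the other chow arrays and 1631.9 to 2265.4 on HFD. Arntl, a core clock gene that runs opposite to Dbp, read 118.6 and 50.2 on these arrays, against 15.7 to 43.7 on the other chow arrays and 13.9 to 36.3 on HFD. Nr1d1, another clock gene, was dim and did not set them apart, with 8.8 and 5.3 on these arrays, 9.6 to 55.8 on the other chow arrays and 2.5 to 30.1 on HFD. The labels give no time of day, and its part in the results was not tested.

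**Figure D2:**
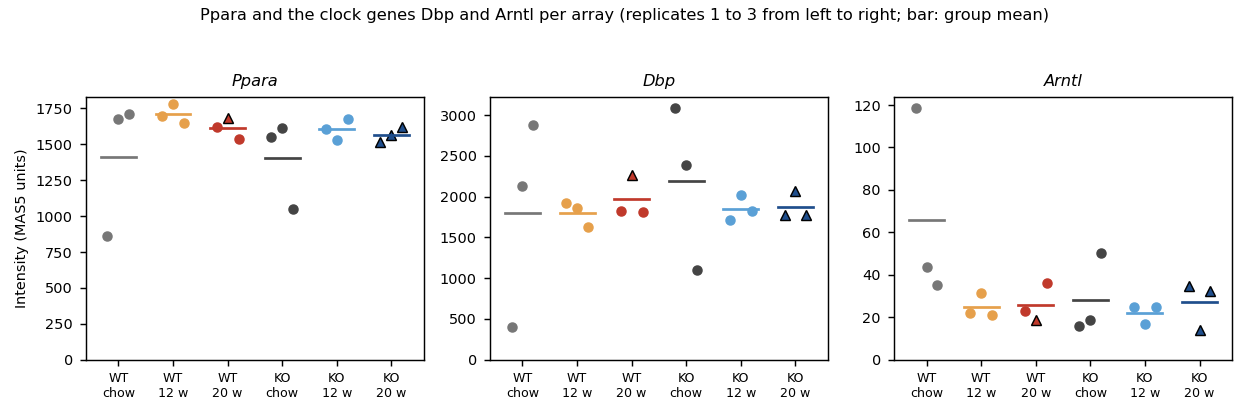
Intensity (MAS5 units, linear axis) of Ppara, Dbp and Arntl on each of the 18 arrays by group, with a bar at the mean of 3 arrays and triangles for the 4 Xist-high arrays. The 2 chow arrays with the lowest Ppara, 861.1 and 1052.4, have the lowest Dbp, 403 and 1099.2, and the highest Arntl, 118.6 and 50.2.

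The element that PPAR-alpha binds with RXR is a direct repeat of the half-site AGGTCA with 1 base between the copies (AGGTCANAGGTCA). This element was searched for on both strands in the 250 bases before each annotated start of RefSeq (GRCm38.p6), where 29 of the 33 measured members had a promoter, 31 promoters in all. With at most 1 mismatch it was found in 2 of these (6.45%), and in 0.484% of all 32851 promoters. With at most 2 mismatches it was found in 4 (12.9%), and in 3.24% of all. The sequences of these 4 are shown because they are the promoters of the set that hold such a match, with the matching 13 bases in capitals, 5′ to 3′ on the strand of the gene. A match to these letters is a description of the sequence and not a measured site.

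Fabp1, chr6:71199782-71199854, plus strand, 1 mismatch: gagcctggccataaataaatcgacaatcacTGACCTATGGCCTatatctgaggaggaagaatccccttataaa
Echs1, chr7:140116462-140116534, minus strand, 2 mismatches: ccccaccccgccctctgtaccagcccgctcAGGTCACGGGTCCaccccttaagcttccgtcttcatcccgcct
Acot12, chr13:91741411-91741423, plus strand, 1 mismatch: TGACCTCTCACCT
Acot4, chr12:84038366-84038378, plus strand, 2 mismatches: TGACCTTTGGCCG

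The element lies in the orientation of the gene in Echs1 and in the opposite orientation in Fabp1, Acot12 and Acot4. The promoters of Pex11a, Acot2, Bdh1 and Fgf21, which rose in all 4 diet comparisons, held no match within these 250 bases. That says only that the letters are not in this window.

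In the carnitine shuttle, Cpt1a, whose product makes the carnitine ester at the outer mitochondrial membrane and sets the pace of entry, rose in WT. In WT it read 936.3, 1430.7 and 1409.4 on chow, 2149.4, 1957.9 and 2231.5 at 12 weeks and 1736.1, 2853.3 and 1921.1 at 20 weeks. In AIM-KO it read 1437.8, 1519.7 and 1721.8, then 1806.8, 1930.6 and 1945.9, and then 2016.4, 2367.3 and 2325.4. Each HFD array was above each chow array, by a narrow margin between AIM-KO chow replicate 3 (1721.8) and WT 20 weeks replicate 1 (1736.1). The change was 0.77 ± 0.17 and 0.78 ± 0.17 in WT (adjusted p = 0.0092 and 0.0038). In AIM-KO it was 0.28 ± 0.17 and 0.52 ± 0.17 (adjusted p = 0.28 and 0.068), and the difference of the diet effects, AIM-KO minus WT, was not called (-0.49 ± 0.23, adjusted p = 0.53 at 12 weeks). The WT array of 2853.3 at 20 weeks is Xist-high. With the term for the Xist-high arrays, which rests on 1 WT array, the 20 week change was 0.56 in WT and -0.12 in AIM-KO. Another probe set of Cpt1a, its dimmest of 3, was called in all 4 (1.36, 1.01, 1.08 and 1.04), in a fit over probe sets.

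Crat, the acetyltransferase that buffers short acyl groups as carnitine esters, rose about as far in every group. Its WT arrays read 71.1, 131.2 and 123.5 on chow, 309.7, 196.6 and 234.8 at 12 weeks and 232.1, 256.4 and 285.9 at 20 weeks. Its AIM-KO arrays read 117.9, 146.1 and 107.7, then 278.1, 284.1 and 273.4, and then 274.1, 293.3 and 282.6. The chow arrays were all below the HFD arrays. The change was 1.18 ± 0.19 and 1.27 ± 0.19 in WT (adjusted p = 0.0011 and 0.00024) and 1.16 ± 0.19 and 1.18 ± 0.19 in AIM-KO (adjusted p = 0.0004 and 0.00085).

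Of the other carnitine genes, Cpt2, which returns the chain to coenzyme A inside the mitochondrion, was called in AIM-KO only (0.39 ± 0.11 and 0.51 ± 0.11, adjusted p = 0.023 and 0.0098). In WT its change was 0.22 ± 0.11 and 0.18 ± 0.11, and the difference between genotypes was not called (0.34 ± 0.16, adjusted p = 0.49 at 20 weeks). Slc25a20, the carrier of carnitine esters across the inner membrane, was called in AIM-KO at 20 weeks (0.51 ± 0.14, adjusted p = 0.036) and had values of 0.31 to 0.36 in the other 3 comparisons. The call of Cpt2 at 12 weeks and that of Slc25a20 each survived in 1 of 6 fits without an array. Crot, which makes carnitine esters of chains leaving the peroxisome, had values of -0.20 and -0.34 in WT and 0.15 and 0.12 in AIM-KO and was not called.

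Fabp1, the main fatty acid binding protein of hepatocytes, was the only member called lower. Its AIM-KO arrays read 12270, 13259.3 and 13847.4 on chow, 10685.1, 10049.2 and 10002.9 at 12 weeks and 11401.8, 10098.5 and 12327.8 at 20 weeks. Its WT arrays read 11165.9, 14288.5 and 13182.8, then 10601.1, 13445.7 and 12266.4, and then 11605.6, 11074.5 and 14436.3. The chow and 12 week arrays of AIM-KO did not overlap, and those of WT did. The change in AIM-KO at 12 weeks was -0.36 ± 0.12 (adjusted p = 0.046). That call was lost in each of the 6 fits without an array and turned to 0.10 after quantile normalization (adjusted p = 0.34). Fabp1 was the brightest probe set on 12 of the 18 arrays, and in AIM-KO at 12 weeks 7 of 10 hepatocyte markers were called lower (sum 49280 to 53200, against 69840 to 73900 on chow); the part of this in the result was not tested.

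The 10 genes of the mitochondrial cycle had small differences. Of the 10, 2 were called in WT at each time (20%, against 5.13% and 14.5% of all genes), 3 in AIM-KO at 12 weeks (30%, against 18%) and 2 at 20 weeks (20%, against 6.85%), and the median change was 0.19 to 0.29. Acadl, the long-chain acyl-CoA dehydrogenase, rose by 0.34 ± 0.09 and 0.37 ± 0.09 in WT (adjusted p = 0.024 and 0.0068) and by 0.52 ± 0.09 in AIM-KO at 20 weeks (adjusted p = 0.0009), with 0.20 ± 0.09 at 12 weeks (adjusted p = 0.12). Of the 6 fits without an array, 2 called it in WT at 12 weeks. On chow it read 2092.7, 2377 and 2231.3 in WT and 2174.2, 2205.7 and 2489 in AIM-KO, and each HFD array was above these. Acads, its short-chain counterpart, rose by 0.57 ± 0.13 in WT at 20 weeks (adjusted p = 0.0063) and by 0.51 ± 0.13 in AIM-KO at 12 weeks (adjusted p = 0.0099). Its other values were 0.45 and 0.34 (adjusted p = 0.051 and 0.14).

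Hadhb, a subunit of the trifunctional protein that carries out the later steps on long chains, rose at 12 weeks in WT (0.57 ± 0.13, adjusted p = 0.015) and in AIM-KO (0.45 ± 0.13, adjusted p = 0.023). It read 3080.6, 2181.2 and 2704.9 on WT chow and 3658.2, 4369.8 and 3695.3 at 12 weeks, and 2733.4, 2963.5 and 3659.7 and then 3944.3, 4358.2 and 4359.5 in AIM-KO, with no overlap in either. These calls held in 4 and 2 of 6 fits without an array. Its partner subunit Hadha had values of 0.07 and 0.15 there and was not called. Acadm, the medium-chain dehydrogenase, was called in AIM-KO at 12 weeks (0.28 ± 0.09, adjusted p = 0.044), in 1 of 6 fits without an array. Etfdh, which hands electrons from the dehydrogenases to the respiratory chain, was called in AIM-KO at 20 weeks (0.74 ± 0.13, adjusted p = 0.0015). It read 1335.6, 1512.9 and 1897.3 there on chow and 2703.7, 2604.6 and 2516.7 at 20 weeks, without overlap; with the Xist term the change was 0.25 (adjusted p = 0.59). In WT it read 1739.3, 1662.8 and 1522.4 on chow and 1910.6, 2678.5 and 1907.4 at 20 weeks, where replicate 2 stood apart (0.38 ± 0.13, adjusted p = 0.053).

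Of the remaining genes of the cycle, Acadvl, the very long-chain dehydrogenase, had changes from -0.06 to 0.20, Echs1, the short-chain hydratase, from -0.21 to 0.17, and Acaa2, the mitochondrial thiolase, from -0.25 to -0.01, none of them called. For Acadvl in WT at 20 weeks the 95% interval ran from -0.20 to 0.19.

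Hadh, the short-chain hydroxyacyl-CoA dehydrogenase, depended on the probe set. Its brightest probe set was not called (0.29, 0.26, 0.19 and 0.20 in WT at 12 and 20 weeks and AIM-KO at 12 and 20 weeks). Its second brightest was called in all 4 with values of 0.46, 0.41, 0.42 and 0.47. The auxiliary enzymes of unsaturated chains gave a single call among 4 genes, Decr1, the mitochondrial dienoyl-CoA reductase, in WT at 20 weeks (0.55 ± 0.13, adjusted p = 0.008). The peroxisomal reductase Decr2 and the isomerases Eci1 and Eci2 had values from 0.08 to 0.53 in the 4 comparisons and were not called.

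In the peroxisome, Pex11a, which drives the division of this organelle, rose in every diet comparison. WT arrays read 556.5, 789 and 721.3 on chow, 1966.2, 1215.7 and 2087.2 at 12 weeks and 1627.6, 1592.8 and 1806.6 at 20 weeks. AIM-KO arrays read 385.1, 554.6 and 1167.3, then 1916.2, 1833.6 and 1890.6, and then 1273.5, 1806.6 and 1402.5. The highest chow array, AIM-KO replicate 3, came close to the lowest HFD array, WT 12 weeks replicate 2. The change was 1.32 ± 0.28 and 1.29 ± 0.28 in WT (adjusted p = 0.0078 and 0.004) and 1.57 ± 0.28 and 1.23 ± 0.28 in AIM-KO (adjusted p = 0.00065 and 0.011). The call in AIM-KO at 20 weeks was lost without AIM-KO 20 weeks replicate 2 (1.08, adjusted p = 0.063) and without AIM-KO chow replicate 1 (0.87, adjusted p = 0.054).

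The oxidation enzymes of the peroxisome on the list gave 1 call. Ehhadh, the bifunctional enzyme of the classical peroxisomal cycle, had uncalled values of 0.06 and 0.15 in WT and of 0.19 after 12 weeks in AIM-KO. It was called in AIM-KO at 20 weeks (0.59 ± 0.17, adjusted p = 0.039), a call kept in 1 of 6 fits without an array, and with the Xist term the change was 0.05 (adjusted p = 0.96). Acaa1b, a peroxisomal thiolase, had values from -0.29 to -0.05 and was not called.

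Among the acyl-CoA thioesterases, Acot2, the mitochondrial enzyme, rose in all 4 comparisons. On chow it read 116, 112.6 and 122.4 in WT and 66.1, 78.4 and 138.8 in AIM-KO. On HFD the WT arrays read 469.9, 191.2 and 361.9 at 12 weeks and 317.8, 350.7 and 421.4 at 20 weeks, and the AIM-KO arrays 425.8, 503.8 and 438 and then 305.6, 328.6 and 292.9. No HFD array reached down to the chow arrays. The change was 1.42 ± 0.26 and 1.60 ± 0.26 in WT (adjusted p = 0.0027 and 0.00037) and 2.30 ± 0.26 and 1.75 ± 0.26 in AIM-KO (adjusted p = 9.9e-06 and 0.00033). A dimmer probe set of Acot2 was also called in each of these.

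Acot1, Acot3 and Acot4, the cytosolic enzyme and a pair of peroxisomal ones, followed another order. These genes are closely related neighbours of Acot2 on chromosome 12, so a probe set can take up signal from a relative. Acot3 read 78.2, 394.7 and 206.9 on WT chow, 568.3, 149.1 and 368.7 at 12 weeks and 273.8, 1285.8 and 147.9 at 20 weeks. In AIM-KO it read 85.8, 130.8 and 341.2, then 161.3, 250.3 and 689, and then 1000.4, 1773.1 and 1472.3. The 3 AIM-KO arrays of 20 weeks and WT 20 weeks replicate 2 were above all others. The change in AIM-KO at 20 weeks was 3.11 ± 0.73 for Acot3 (adjusted p = 0.013), 1.55 ± 0.42 for Acot1 (adjusted p = 0.032) and 1.54 ± 0.36 for Acot4 (adjusted p = 0.014). In the other 3 diet comparisons the values were 0.75 to 1.0, -0.02 to 0.30 and 0.61 to 0.92, and none was called. The 20 week calls were kept in 4, 1 and 3 of 6 fits without an array.

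Those 4 arrays are the Xist-high arrays. Acot1 read 784.1 on WT 20 weeks replicate 2 against 209.8 and 229.3 on the other arrays of its group, and 631.2, 722.2 and 877.3 in AIM-KO at 20 weeks. Acot4 read 241.6 there against 112.2 and 101.2, and 179.7, 262.9 and 211.8 in AIM-KO at 20 weeks. For 7 of 33 members, and for 0.687% of all genes tested, all 4 Xist-high arrays exceeded all 14 others: Acadl, Etfdh, Eci2, Ehhadh, Acot1, Acot3 and Acot4. Acot2 was not among them, with 350.7 on WT 20 weeks replicate 2 and up to 503.8 on the other 14. After adding the term for Xist-high arrays, the AIM-KO changes at 20 weeks were -0.27 for Acot1, 0.45 for Acot3 and 0.38 for Acot4. Genotype at 20 weeks and this difference overlap except for 1 WT array. The actin ratio moved with these genes within WT at 20 weeks too, at 2.54 on replicate 2 against 3.64 and 4.22 on the others. The direction was the same in WT at 12 weeks, where Acot3 was lowest (149.1) on the array with a ratio of 3.79. In AIM-KO at 12 weeks Acot3 was highest (689) on the array with 3.06, a ratio at the top of the range of most arrays. The part of RNA quality in this order of the arrays was not tested. With a term for the actin ratio the AIM-KO changes at 20 weeks were 1.55 for Acot1, 3.11 for Acot3 and 1.54 for Acot4 (adjusted p = 0.0086, 0.0061 and 0.0044). That term could hardly move them, since the ratio was 2.25 to 2.65 in AIM-KO on chow and 2.35 to 2.61 at 20 weeks. With the actin term 11, 13, 14 and 16 members were called in the diet comparisons, in the order of WT and then AIM-KO at 12 and 20 weeks. The shares of all genes called in that fit are not given here, so these counts do not show whether the members stood out.

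**Figure D3:**
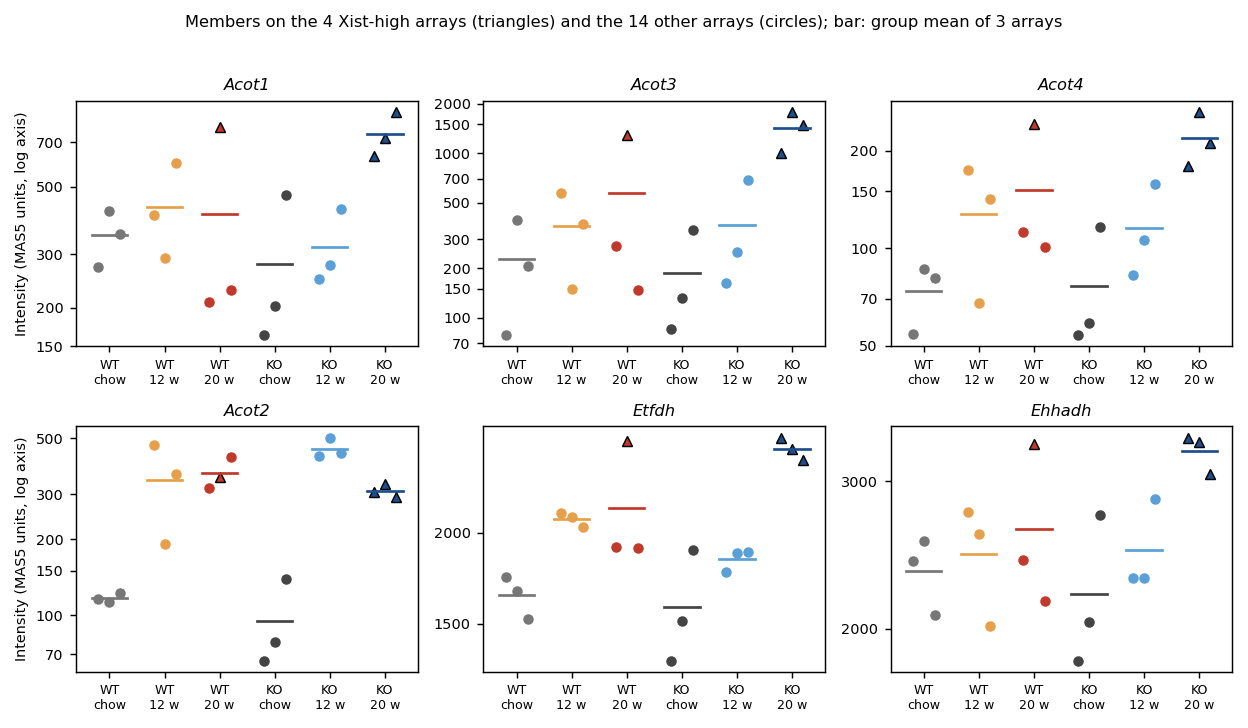
Intensity (MAS5 units, log axis) per array of 6 members, by group, with triangles for the 4 Xist-high arrays, circles for the 14 others and a bar at the group mean. In all panels except that of Acot2 the 4 triangles lie above every circle.

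Acot12, the cytosolic acetyl-CoA hydrolase, had values from -0.32 to 0.13 and was not called. Bdh1, the mitochondrial enzyme that interconverts the ketone bodies acetoacetate and beta-hydroxybutyrate, had the smallest SE of the genes that rose throughout. Its WT arrays read 1778.1, 2261.3 and 2085.5 on chow, 3511.6, 3333.1 and 3563.6 at 12 weeks and 3206.7, 3358 and 3648.2 at 20 weeks. Its AIM-KO arrays read 2000.2, 1970.5 and 2092.4, then 3384.5, 3239 and 2996.3, and then 3698.5, 3378.6 and 3346. Chow and HFD arrays were well apart in both genotypes. The change was 0.77 ± 0.09 and 0.74 ± 0.09 in WT (adjusted p = 8.4e-05 and 3.9e-05) and 0.66 ± 0.09 and 0.78 ± 0.09 in AIM-KO (adjusted p = 0.0001 and 4.4e-05).

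Fgf21, a hormone that the liver secretes under fasting and nutrient stress, rose in every comparison from a low level. It read 26.7, 23 and 19.6 on WT chow, 123.3, 61.2 and 73.9 at 12 weeks and 67.7, 83.5 and 73 at 20 weeks. In AIM-KO it read 22.7, 12.1 and 22.4, then 89.3, 83.7 and 94.6, and then 66.2, 93.5 and 78.3. All HFD arrays were above all chow arrays. The change was 1.71 ± 0.24 and 1.57 ± 0.24 in WT (adjusted p = 0.00028 and 0.00024) and 2.09 ± 0.24 and 1.91 ± 0.24 in AIM-KO (adjusted p = 1.2e-05 and 7e-05). Klb, the co-receptor that FGF21 needs, was called lower in WT (-0.72 ± 0.18 and then -0.62 ± 0.18, adjusted p = 0.022 and 0.024).

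Vnn1, a pantetheinase of the hepatocyte surface that recycles coenzyme A precursors, rose in all groups. WT arrays read 645.4, 1054.8 and 886.2 on chow, 3079.3, 3744.9 and 2954.7 at 12 weeks and 2843.5, 3679.6 and 2368.6 at 20 weeks. AIM-KO arrays read 333.7, 679.6 and 1648, then 2907.8, 3008.7 and 3269.2, and then 3175.1, 3768.7 and 3778.5. The AIM-KO chow arrays were spread widely, from 333.7 to 1648, and the HFD arrays all lay higher. The change was 1.94 ± 0.35 and 1.78 ± 0.35 in WT (adjusted p = 0.0028 and 0.002) and 2.08 ± 0.35 and 2.30 ± 0.35 in AIM-KO (adjusted p = 0.00044 and 0.00048).

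Pdk4, the kinase that shuts pyruvate dehydrogenase and so spares glucose, had the largest single change of a called member. That change, in AIM-KO, started from a low level on chow, near the array medians. On chow it read 149.1, 31.5 and 15.7 in WT and 12.7, 16 and 21 in AIM-KO. On HFD it read 241.9, 72.7 and 89.9 at 12 weeks and 155.6, 224.7 and 154.7 at 20 weeks in WT, and 265.3, 219.2 and 168.7 and then 118.6, 99.4 and 97.2 in AIM-KO. In AIM-KO every HFD array was above every chow array, while in WT chow replicate 1 lay within the 12 week range. The 12 and 20 week changes in AIM-KO were 3.47 ± 0.52 and 2.46 ± 0.52 (adjusted p = 0.00016 and 0.0065). In WT they were 1.37 ± 0.52 and 1.94 ± 0.52 (adjusted p = 0.14 and 0.016). The WT values turned on single chow arrays. Without replicate 1, one of the 2 arrays of low Dbp, the 12 week change was 2.22 (adjusted p = 0.0023), and without replicate 2 or replicate 3 the 20 week change was 1.73 (adjusted p = 0.074) or 1.30 (adjusted p = 0.11).

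**Figure D4:**
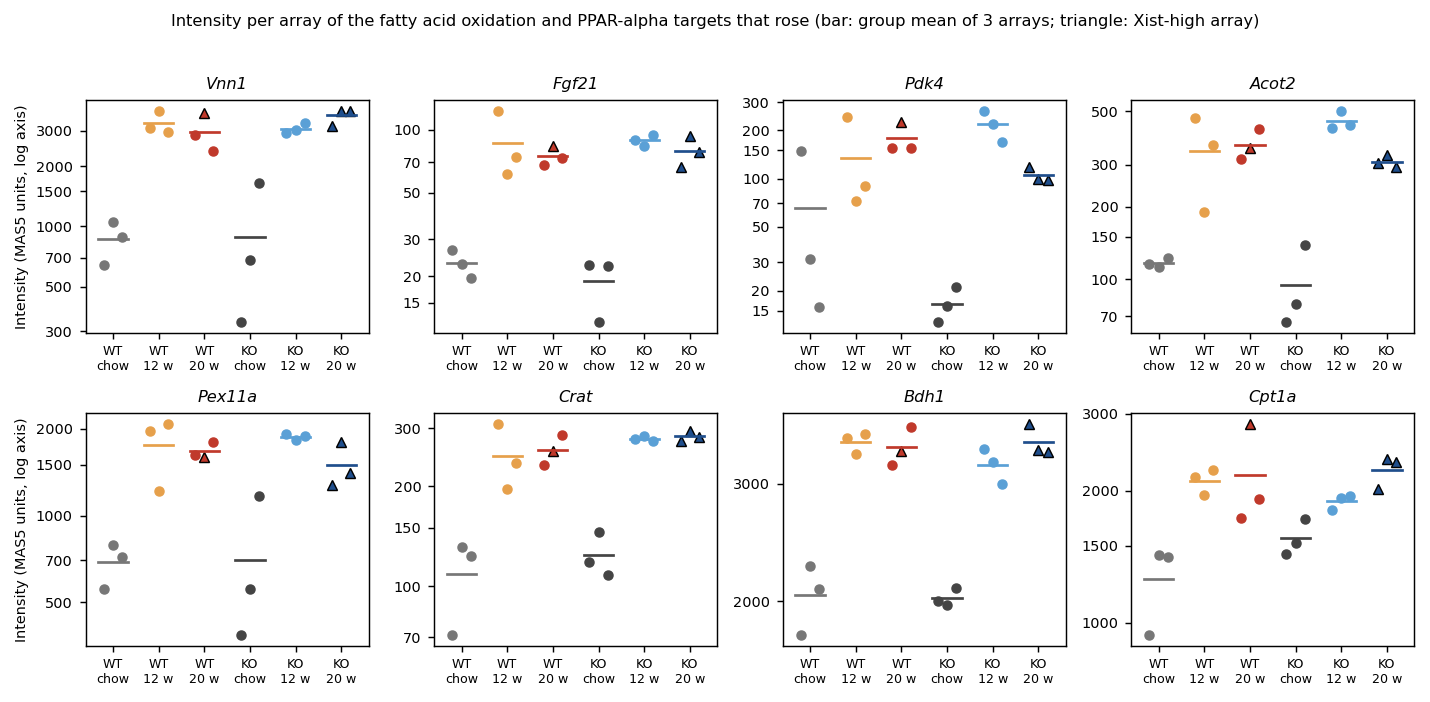
Intensity (MAS5 units, log axis) per array of 8 members in the 6 groups, 3 arrays each, with a bar at the group mean and triangles for the 4 Xist-high arrays. Every HFD array lies above every chow array of either genotype for each gene except Pdk4, whose WT chow replicate 1 read 149.1.

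No member was called between the genotypes. On chow, at 12 weeks and at 20 weeks 0 of 33 members were called between AIM-KO and WT with limma, where 0.0272%, 0.0749% and 0.157% of all genes were called, and 3, 0 and 6 members had an unadjusted p under 0.05 (9.09%, 0% and 18.2%, against 7.24%, 8.37% and 13.4% of all genes). The median difference, AIM-KO minus WT, was -0.01, -0.09 and 0.14. Nor was a member called for a difference of the diet effect at 12 weeks (background 0.00681%) or 20 weeks (background 0%), with 3 and 2 members at an unadjusted p under 0.05 (9.09% and 6.06%, against 9.43% and 10.2%). The intervals given next are those of AIM-KO minus WT on HFD, not of the difference of the diet effects. They were narrow for Bdh1 (-0.31 to 0.08 at 12 weeks and -0.17 to 0.23 at 20 weeks) and wide for Acot3 (-1.58 to 1.47 and 0.34 to 3.39) and Pdk4 (-0.23 to 1.94 and -1.82 to 0.36). For Ppara they ran from -0.50 to 0.31 and from -0.45 to 0.36.

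The count at 20 weeks rested on WT replicate 2, the Xist-high array of that group. Without it 5 members were called higher in AIM-KO: Acot1 (1.73 ± 0.35, adjusted p = 0.007), Hadha (0.74 ± 0.16, adjusted p = 0.011), Acot3 (2.75 ± 0.68, adjusted p = 0.022), Etfdh (0.45 ± 0.11, adjusted p = 0.026) and Decr2 (0.73 ± 0.21, adjusted p = 0.042). These are 15.2% of the members, and the number called among all genes was then 946 (6.44%) in place of 23. In that fit the AIM-KO group is wholly Xist-high, with actin ratios of 2.35 to 2.61, and the WT group wholly Xist-low, with actin ratios of 3.64 and 4.22, so genotype, Xist status and this sign of RNA quality cannot be told apart. On all 18 arrays the differences of these 5 genes with a term for the actin ratio were 0.35, 0.14, 0.77, 0.09 and -0.02 in the same order. They were 1.13, 0.53, 1.87, 0.29 and 0.45 without it, and none was called in either fit. With the term for the Xist-high arrays instead, which rests on 1 WT array, they were -0.09, 0.1, 0.1, -0.04 and -0.1.

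**Figure D5:**
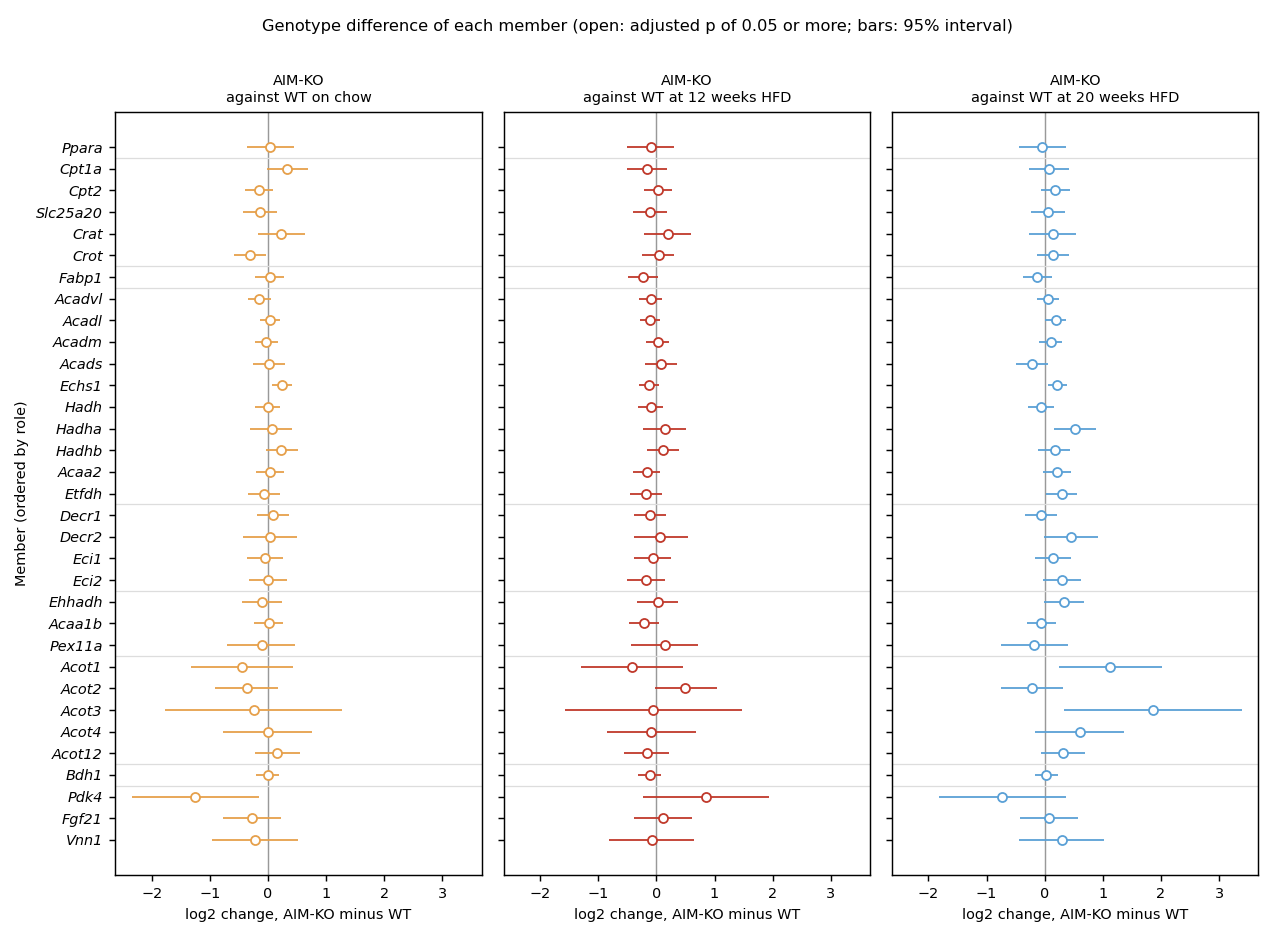
Log2 difference (AIM-KO minus WT, with its 95% interval) of the 33 members on chow, at 12 weeks and at 20 weeks of HFD, 3 arrays a group. All points are open, since none was called; the widest intervals are those of Acot3.

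The members also differed in how much they varied within a group. The SD of a member over 3 arrays, on the log2 scale, had a median of 0.26 in AIM-KO on chow and 0.18 in WT on chow, against 0.08 and 0.09 in AIM-KO after 12 and 20 weeks of HFD and 0.16 and 0.20 in WT. Over all genes these medians were 0.26, 0.21, 0.17, 0.21, 0.23 and 0.26 in that order. On chow most members shared the order of the arrays. AIM-KO chow replicate 3 was the highest of its group for 28 of 33 members, against 40.2% of all genes tested, and replicate 1 the lowest for 27, against 37.7%. WT chow replicate 2 was the highest for 25, against 35.3%, and replicate 1 the lowest for 24, against 39.1%. After quantile normalization these counts were 26, 26, 22 and 22. Without WT chow replicate 1 and AIM-KO chow replicate 3, 10, 13, 15 and 20 members were called in the diet comparisons, in the order of WT at 12 and 20 weeks and AIM-KO at 12 and 20 weeks, in a fit added after seeing the data. These are 30.3%, 39.4%, 45.5% and 60.6% of the members, against 5.89%, 14.2%, 16.3% and 7.13% of all genes in that fit. Leaving out the AIM-KO array, the highest of its group for most members, lowers the chow level of those members by itself. For the WT array, the lowest for most members, the shift of the chow level is upward.

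Other genes of the same pathways, from lists that hold no member, moved in both directions. Of 16 other peroxisomal genes 3 were called higher and 1 lower in WT at 12 weeks, 3 and 4 in WT at 20 weeks, 4 and 4 after 12 weeks in AIM-KO and 5 and 2 after 20. Abcd2, a peroxisomal importer of fatty acyl-CoA, rose by 1.90, 2.37, 1.57 and 2.48, and Acaa1a, the thiolase related to Acaa1b, by 0.54, 0.48, 0.50 and 0.67, in the same order. Nudt7, a peroxisomal coenzyme A hydrolase, fell by 0.88 in WT at 20 weeks and by 1.36 and 0.96 in AIM-KO. Hacl1, a lyase of the alpha-oxidation of branched chains, was called lower in WT at 20 weeks (-1.17) and after 12 weeks in AIM-KO (-1.23); its uncalled values were -0.81 (WT, 12 weeks) and 0.47 (AIM-KO, 20 weeks).

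Of 15 genes of uptake and activation 3, 6, 5 and 4 were called higher and 1, 3, 3 and 0 lower. Cd36, a fatty acid translocase, rose by 2.58, 2.87, 2.45 and 2.33, and Fabp2 and Fabp4, binding proteins of gut and of fat and macrophages, by 2.00, 2.02, 1.35 and 1.47 and by 1.82, 2.24, 2.75 and 1.67. Of 17 other mitochondrial genes 1, 5, 4 and 3 were higher and 1, 1, 4 and 1 lower, with Acadsb, a branched-chain acyl-CoA dehydrogenase, lower in each (-0.55, -0.78, -1.05 and -0.62). The thioesterase gene Acot9 rose by 0.92, 1.62 and 1.68, and its value in AIM-KO at 20 weeks was 0.56 (adjusted p = 0.21). Acacb, whose product makes the malonyl-CoA that inhibits CPT1, rose by 1.23, 1.39, 2.38 and 2.44, and Pparg, the receptor related to PPAR-alpha that serves lipid storage, by 1.24, 0.94, 1.36 and 0.91. These belong to a list of 20 tested regulators with 2, 3, 3 and 2 higher and 1, 3, 1 and 0 lower.

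Of 19 further known targets of PPAR-alpha 6, 6, 9 and 6 were higher and 0, 1, 1 and 0 lower. The largest changes were those of the lipid droplet protein genes Cidea, which rose by 6.83, 5.92 and 6.01 and had a value of 1.62 ± 0.76 in AIM-KO at 20 weeks (adjusted p = 0.24), and Cidec, which rose by 5.4, 5.31, 5.23 and 2.52. G0s2, an inhibitor of the triglyceride lipase ATGL, rose by 2.26, 1.86, 1.61 and 2.14, and the desaturase gene Fads2 by 1.78, 1.83, 1.29 and 1.60. In omega oxidation, with 6 genes tested, 1, 1, 2 and 3 were higher and 2, 3, 2 and 2 lower. Aldh3a2, which oxidises fatty aldehydes, rose by 1.30, 1.2, 1.27 and 1.19. Cyp4f14, another hydroxylase, fell by 1.27, 1.76 and 2.32 and had a value of -0.79 in AIM-KO at 20 weeks (adjusted p = 0.093). Cyp4a14, a fatty acid hydroxylase, was called higher in AIM-KO, by 0.92 and 1.70, and not in WT, without a call for the difference between genotypes. Of 3 ketogenesis genes tested 0, 1, 1 and 0 were called, all higher.

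Markers of other liver cells changed with the diet as well. The summed intensity of 10 recruited macrophage markers was 675.3 to 848.4 on WT chow, 1018 to 1772 at 12 weeks and 1635 to 2291 at 20 weeks, and 613.7 to 762, 1845 to 2281 and 788.2 to 1059 in AIM-KO. The number called higher was 3, 8, 8 and 1 of 10, and that of 8 stellate cell markers 4, 7, 6 and 5. Hepatocyte markers were called lower for 1, 4, 7 and 0 of 10. Their part in the members' results was not tested, and in bulk liver fewer cells of a type and less RNA per cell cannot be told apart.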

How the data were processed

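Per the submitters' processing notes, the deposited intensity of each probe set is a MAS5 value on a linear scale, of a version not stated. Per the labels' protocols, 100 ng of Trizol-extracted RNA was labelled. The 2% trimmed mean of each array was 100. The platform annotation gave 1 gene for 34945 of 45101 probe sets, several for 932 and none for 9160, besides 64 controls, and only the first were used. Symbols were updated through gene identifiers with a RefSeq table of GRCm38.p6, which matched 34741.

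From the deposited intensity, log2(value + 3.3) was computed, with the 20th percentile of the table added, which shrinks the changes of dim genes. The arrays were not normalized again. Kept were 26668 probe sets that exceeded the 40th percentile on 3 or more arrays, and the brightest per gene was used, which gave 14691 genes. limma 3.58.1 in R 4.3.3 fitted 6 group means on all 18 arrays, with a variance trend and 18.2 degrees of freedom; tests were 2-sided and adjusted by the Benjamini-Hochberg method. The procedure was tested on simulated data.

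The members, the lists of other genes and markers, and the tests were chosen with earlier results of these data known. All members may be named. Values per array are given for Ppara, Cpt1a, up to 5 called members with the largest rise and 5 with the largest fall per comparison, and members called in all 4 diet comparisons; those of Acot1, Acot4, Acadl, Hadhb and Etfdh were added after their values were seen. Other genes are up to 3 called with the largest change per list and comparison, and are followed across comparisons. Alternatives were quantile normalization, a pseudocount of 0.825 or 13.2, the dim filter omitted or set at the 60th percentile, averaging over the probe sets of a gene, a fit with no trend, a replicate block, terms for the actin 3'/5' ratio and for the Xist-high arrays, and leaving out each array in turn. Leaving out both low-Dbp chow arrays or the 4 Xist-high arrays, and a fit over probe sets, were added after seeing the data.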

Additional observations from a re-analysis of the deposited data

How the results depend on the processing

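With 3 arrays a group, small changes of single members could not be separated from the spread. With the term for the Xist-high arrays the number of members called in AIM-KO at 20 weeks against chow was 1 in place of 15; that term leaves the contrast to 1 WT array, and Crat, Pex11a, Acot2 and Fgf21 kept changes of 1.19, 1.33, 1.81 and 1.67 there without a call. Leaving out each array in turn gave 8 to 9 members called in WT at 12 weeks, 10 to 12 in WT at 20 weeks, 8 to 14 in AIM-KO at 12 weeks and 9 to 19 in AIM-KO at 20 weeks. It gave 0 for AIM-KO against WT on chow and at 12 weeks, 0 to 5 at 20 weeks, and for the genotypes' differing diet effects 0 at 12 weeks and 0 to 1 at 20 weeks. The number called in WT at 12 and 20 weeks and AIM-KO at 12 and 20 weeks was 11, 15, 16 and 19 after quantile normalization, which shared 9, 11, 11 and 15 with the reported calls, 8, 11, 8 and 12 without a variance trend, and 11, 13, 14 and 16 with a term for the actin ratio. For these fits, and for the diet counts without an array, the shares of all genes called are not given. Such counts therefore do not show whether the members stood out from other genes. Fabp1 in AIM-KO at 12 weeks turned to 0.10 after quantile normalization; the cause was not tested. Of 535 values of 31 named calls under the alternatives, 510 kept their direction and call, 24 lost the call and 1 reversed. The named calls are those of Cpt1a, of called members with the largest changes per comparison, and of members called in every diet comparison. Calls of the other members are not in this tally. Some of those were kept in few of the fits without an array and others in all, so the tally does not describe every call.

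Same-numbered arrays of different groups had correlations of -0.01 to 0.23 in their deviations from the group means, and 2 of 21 were over 0.1, so the numbers were not taken to pair the samples. With the replicate number as a block 11, 12, 12 and 17 members were called for the diet and 0 for genotype or the difference of diet effects. The shares of all genes called with the block are not given either.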

Other observations

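Several members were read by more than 1 probe set, and in a fit over probe sets, added after seeing the data, these did not always give the same calls. Of Decr1, a dimmer probe set was called in WT at 12 weeks (0.56 ± 0.15, adjusted p = 0.046) and in AIM-KO at 12 and 20 weeks (0.84 ± 0.15 and 0.99 ± 0.15, adjusted p = 0.00091 and 0.00058), and not in WT at 20 weeks (0.37 ± 0.15, adjusted p = 0.13), where the brightest had its single call. Of Bdh1, a dimmer probe set was called in AIM-KO (1.02 ± 0.22 and 1.25 ± 0.22, adjusted p = 0.0035 and 0.0017) and not in WT (0.64 ± 0.22 and 0.51 ± 0.22, adjusted p = 0.12 and 0.14); the difference of the diet effects was not called for it (0.38 ± 0.31 and 0.74 ± 0.31, adjusted p = 0.77 and 0.45). Of Hadh, the dimmest of 3 was called at 12 weeks in both genotypes (1.23 ± 0.29 and 1.25 ± 0.29, adjusted p = 0.02 and 0.0059) and not at 20 weeks (0.44 ± 0.29 and 0.87 ± 0.29, adjusted p = 0.38 and 0.09).

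Among the genes of the other lists, Cyp4a12a is a fatty acid hydroxylase that male mouse liver is known to express more than female liver. Its change from chow at 20 weeks was -4.57 ± 1.11 in WT and -7.16 ± 1.11 in AIM-KO (adjusted p = 0.0091 and 0.00055). Of the Xist-high arrays, 1 lies in that WT group and 3 in that AIM-KO group. Values per array are not given for Cyp4a12a, and the part of Xist status in either change was not tested. Cidea, a lipid droplet protein, was the 1 gene of these lists called between genotypes, lower in AIM-KO than in WT at 20 weeks (-4.26 ± 0.76, adjusted p = 0.037). In that comparison genotype and Xist status overlap except for 1 WT array, and their parts in the difference were not tested.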
